A study of Rattus norvegicus with 6 samples.

Results

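Glycolysis breaks glucose down to pyruvate, and several of its steps can be carried out by isoenzymes that different genes encode. In the kidney the proximal tubule makes glucose rather than burning it and takes most of its energy from fatty acids and amino acids, while the distal segments and the medulla rely more on glycolysis. The 9 genes described here encode enzymes of 5 of its steps: the hexokinases *Hk1* and *Hk2*, the phosphofructokinases *Pfkl*, *Pfkm* and *Pfkp*, the aldolase *Aldoa*, the phosphoglycerate mutases *Pgam1* and *Pgam2*, and the enolase *Eno1*. They were picked out by gene symbol, with earlier results of these data known, and all 9 were found among the 17051 genes in the files. Rare isoenzymes were set against the dominant isoenzyme of the same step.

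RNA of kidney tissue was sequenced from 6 male Sprague Dawley rats, each as a library of its own. The AL group (rats 61, 71 and 88) had standard laboratory chow ad libitum. The HD group (rats 64, 67 and 69) was fed a hyperammonemic diet for a week, in which amino acids in the proportions of haemoglobin were mixed into chow to raise the ammonia load of the kidney. Neither ages nor the part of the kidney used for sequencing are given in the sources used here, so values are for mixed cells. In such bulk tissue, fewer cells of a type and less RNA per cell cannot be told apart. Libraries held 12499938 to 30466453 estimated counts, and rat 69 of the HD group had the deepest. Levels are given as CPM, counts scaled to a common library size with edgeR's TMM factors. The 10 proximal tubule markers were abundant in every rat, with a summed level of 11480 to 19390 CPM.

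Of the 9 genes, only *Pgam2*, the muscle isoenzyme of phosphoglycerate mutase, had a fold change that stood away from 0 at an unadjusted *P* value below 0.05. This 1 of 9 was near the share of all tested genes at that level by edgeR in either direction, 10.6%. *Pgam2* was 4.97-fold higher in the HD group by its fitted mean level, from a very low level, and rat 69 of the HD group was by far the highest. It had enough counts to be tested only through the HD rats. The abundant isoenzyme *Pgam1* and the other 7 genes had log2 fold changes between -0.32 and 0.32. No member passed an adjusted *P* value of 0.05 by edgeR's quasi-likelihood test with Benjamini-Hochberg adjustment, where 0.0% of the 11553 tested genes did (0 genes). DESeq2 called 182 genes, *Pgam2* among them.

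Phosphoglycerate mutase moves the phosphate group of 3-phosphoglycerate to the neighbouring carbon, which gives 2-phosphoglycerate. Its active form is a pair of subunits, and *Pgam2* supplies the subunit of adult skeletal and heart muscle, while *Pgam1* is the form of most other tissues. In rn5, *Pgam1* lay on the plus strand at chr1:268610733-268618280 and *Pgam2* on the minus strand at chr14:86736814-86738925, each with 1 transcript in the files. Their promoters are shown because these 2 genes carry the contrast described below, and they differ in base composition. Each is 300 bases of RefSeq sequence on GRCr8, from 250 bases before to 50 bases after the annotated start, on the strand of the gene. Capitals mark every CpG in *Pgam1* (chr1:250672902-250673201, plus strand), and in *Pgam2* (chr14:84897825-84898124, minus strand) they mark the TATAAA and the CAGCTG motifs.
Pgam1: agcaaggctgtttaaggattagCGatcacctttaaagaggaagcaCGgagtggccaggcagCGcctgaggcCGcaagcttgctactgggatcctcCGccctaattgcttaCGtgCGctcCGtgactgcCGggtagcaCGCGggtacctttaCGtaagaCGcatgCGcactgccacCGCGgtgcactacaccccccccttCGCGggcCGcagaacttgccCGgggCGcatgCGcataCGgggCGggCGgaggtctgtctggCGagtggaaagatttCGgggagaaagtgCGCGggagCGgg
Pgam2: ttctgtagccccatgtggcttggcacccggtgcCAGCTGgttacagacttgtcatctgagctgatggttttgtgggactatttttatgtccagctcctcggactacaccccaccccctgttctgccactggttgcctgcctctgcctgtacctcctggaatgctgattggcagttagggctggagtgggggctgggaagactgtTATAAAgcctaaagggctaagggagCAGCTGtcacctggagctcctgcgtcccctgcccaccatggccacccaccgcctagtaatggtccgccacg

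The *Pgam1* promoter held 30 CpG, more than 89.7% of the 33469 rat promoters of the same length, whose median was 7. The *Pgam2* promoter held 6 CpG, more than 43.7% of them. The *Pgam2* promoter held 1 TATAAA at position -46 from the start, a TATA box sequence found on either strand in 14.2% of promoters, and the *Pgam1* promoter held none. The E-box pattern CANNTG, the kind of sequence that muscle regulatory factors can bind, occurred 5 times in *Pgam2* and not at all in *Pgam1*. It was present in 72.1% of all promoters, and reads the same on both strands. Of these 5, 2 were CAGCTG, which 15.1% of promoters held. The pattern ACGTG, the core of the hypoxia response element, occurred 1 time in *Pgam1* and not in *Pgam2*, against 19.3% of promoters on either strand. These matches describe the letters of a window and not sites in use.

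*Pgam2* had 19, 28 and 15 estimated counts in AL rats 61, 71 and 88, and 61, 41 and 401 in HD rats 64, 67 and 69. The test took genes with at least 30 counts in at least 1 rat, which *Pgam2* met only through the HD rats. With at least 10 counts required in every rat instead, its log2 fold change was 2.31 (adjusted *P* = 0.415, edgeR). Scaled to library size, these were 1.51, 1.55 and 0.993 CPM in the AL group and 5.18, 2.05 and 12.8 CPM in the HD group. All 3 HD rats lay above all 3 AL rats, but rat 67 was only 1.32 times the highest AL rat and rat 69 was 6.26 times rat 67. Among the tested genes, 7.25% had every HD rat above every AL rat. Group means were 1.35 ± 0.311 (SD, n = 3) for AL and 6.68 ± 5.54 (SD, n = 3) for HD, in CPM. The HD group therefore varied by 82.9% of its mean, against 23.0% in the AL group. The log2 fold change was 2.31 (SE 0.65), with an unadjusted *P* value of 0.00845 and an adjusted *P* value of 0.398 by edgeR's quasi-likelihood test with Benjamini-Hochberg adjustment. An unadjusted *P* value below 0.05 was reached by 10.6% of the tested genes in either direction and by 4.66% with HD higher, and *Pgam2* ranked at 234 by this *P* value. With DESeq2 its adjusted *P* value was 0.0312. At a DESeq2 adjusted *P* value of at most 0.05, 0.806% of 11543 genes passed with HD higher. Without rat 69 the log2 fold change was 1.41 (adjusted *P* = 0.28, edgeR), and without rat 67 it was 2.74 (adjusted *P* = 0.274, edgeR).

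*Pgam1* was abundant and even across the rats. It had 478, 423 and 402 CPM in the AL group and 486, 435 and 492 CPM in the HD group. The groups overlapped, with rat 69 highest and AL rat 88 lowest, and the log2 fold change was 0.12 (SE 0.12; adjusted *P* = 0.794, edgeR). Levels of different genes were compared per transcript length, as TPM, which scales each library to the same total of transcripts. On this scale *Pgam1* was 139-fold above *Pgam2* by group means in the AL group (400 ± 23.9 against 2.87 ± 0.720 TPM, SD, n = 3) and 29.8-fold above it in the HD group (415 ± 46.8 against 13.9 ± 12.2 TPM, SD, n = 3). The mean of *Pgam2* was thus 11.1 TPM higher in the HD group and that of *Pgam1* was 15.3 TPM higher, and both differences were smaller than the SD of the HD group. Both also rested on rat 69: without it *Pgam2* was 4.23 TPM higher in the HD group, *Pgam1* differed by -7.55 TPM, and *Pgam1* was 55.3-fold above *Pgam2* in the HD group.

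As a share of the phosphoglycerate mutase transcripts of a rat, *Pgam2* made up 0.721%, 0.836% and 0.565% in the AL group and 2.39%, 1.07% and 5.65% in the HD group. Every HD rat was above every AL rat, and *Pgam1* still made up at least 94.4% in each. The log2 ratio of *Pgam2* to *Pgam1* was 1.84 higher in the HD group, a 3.57-fold difference in geometric means. The exact two-sided permutation test over the 20 assignments of the rats gave *P* = 0.1, the smallest value that 3 rats against 3 allow (adjusted *P* = 0.28 over 7 isoenzyme ratios compared). Without rat 69 the log2 difference was 1.21. *Pgam1* and *Pgam2* are alike in coding sequence. Before rounding, the estimated counts of *Pgam2* were whole numbers in every rat, and those of *Pgam1* were not. How the authors' quantification assigned reads that match both was not tested.

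**Figure D1:**
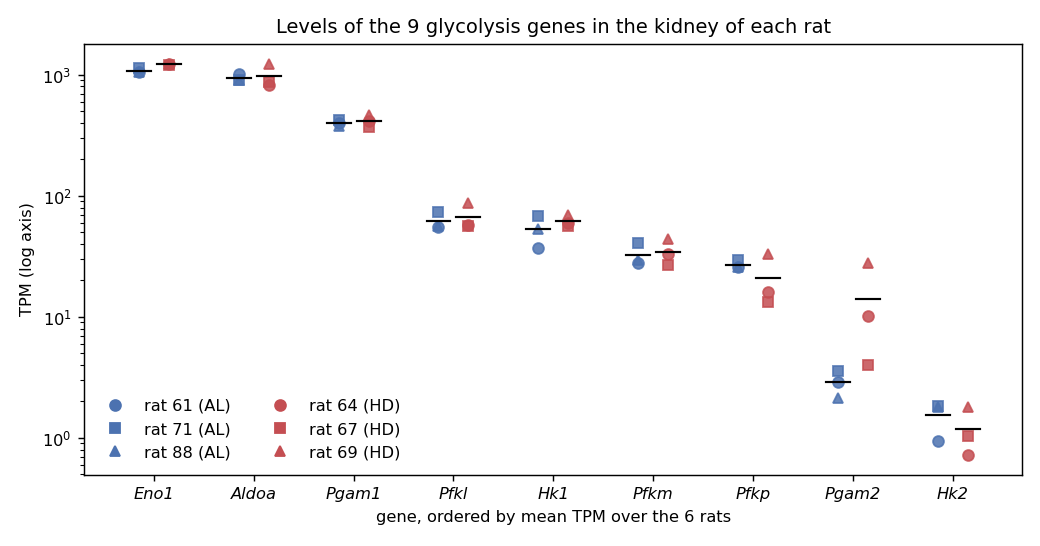
TPM of the 9 genes on a log axis, with a point for each rat (blue AL, red HD) and a black line at each group mean, ordered by the mean over the 6 rats. *Eno1*, *Aldoa* and *Pgam1* lie far above the others, *Pgam2* and *Hk2* lie lowest, and *Pgam2* has widely spread HD points (3.98 to 27.6 TPM) above its AL points (2.14 to 3.58 TPM).

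The 9 genes together made up 0.25% to 0.319% of all TPM, highest in rat 69. By mean TPM over the 6 rats the order was *Eno1* (1149), *Aldoa* (961), *Pgam1* (408), *Pfkl* (64.3), *Hk1* (57.4), *Pfkm* (33.6), *Pfkp* (24.0), *Pgam2* (8.41) and *Hk2* (1.36). The ranges over rats of neighbours in this order overlapped, except that *Pgam1* was apart from *Aldoa* above and *Pfkl* below it, and *Pgam2* from *Hk2*. Among all tested genes, *Eno1* stood at percentile 99.4 of mean CPM, and *Pgam2* and *Hk2* at percentiles 16.0 and 13.4.

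Hexokinase traps glucose in the cell by phosphorylating it, and *Hk1* is the form of most tissues. *Hk1* had 84.3, 129 and 108 CPM in the AL group and 133, 126 and 142 CPM in the HD group. Rat 61 was low and the groups overlapped, since HD rat 67 lay below AL rat 71. The log2 fold change was 0.32 (SE 0.16; unadjusted *P* = 0.0854, adjusted *P* = 0.535, edgeR), 0.18 without rat 61, and 0.47 without rat 71 (unadjusted *P* = 0.0187, adjusted *P* = 0.59, edgeR). *Hk2*, the insulin-responsive form of muscle and fat, had 2.38, 3.88 and 4.10 CPM in the AL group and 1.78, 2.60 and 4.09 CPM in the HD group. The groups overlapped over nearly their whole range, and the log2 fold change was -0.27 (SE 0.39; adjusted *P* = 0.867, edgeR).

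*Hk1* made up 95.1% to 98.7% of hexokinase transcripts by TPM. The share of *Hk2* was 2.44%, 2.63% and 3.23% in the AL group and 1.19%, 1.82% and 2.49% in the HD group. Rat 69 lay between AL rats 61 and 71, so these groups overlapped, and the ratio of *Hk2* to *Hk1* was 0.625-fold in the HD group (exact permutation *P* = 0.2). *Hk3*, a hexokinase of blood cells, had 12, 21 and 26 estimated counts in the AL group and 2, 5 and 24 in the HD group, too few for the filter of the test. Its share of hexokinase TPM was 0.937% to 1.62% in the AL group and 0.132% to 0.568% in the HD group, with no overlap. By CPM, 810 of the 11553 tested genes had every HD rat below every AL rat. The summed level of 9 leukocyte markers was 137 to 464 CPM in the AL group and 53.2 to 119 CPM in the HD group, also without overlap. Most of it was the lysozyme gene *Lyz2*, and without *Lyz2* the other 8 summed to 45.2, 123 and 90.9 CPM in the AL group and 26.6, 30.2 and 50.3 CPM in the HD group, where rat 69 lay above AL rat 61. Of the 9 leukocyte markers, 6 reached an unadjusted *P* value below 0.05 by edgeR with HD lower. Of all 11553 tested genes, 1224 (10.6%) reached it in either direction, and 538 of those had HD higher. The median log2 fold change of the list was -1.37. Of these 6, *Cd3e* met the minimum of 30 counts only through AL rat 71. The part of leukocytes in the *Hk3* values was not tested.

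Phosphofructokinase commits fructose 6-phosphate to glycolysis, as tetramers of liver (*Pfkl*), muscle (*Pfkm*) and platelet (*Pfkp*) type subunits. *Pfkl* had 106, 116 and 95.0 CPM in the AL group and 107, 105 and 149 CPM in the HD group. *Pfkm* had 53.6, 64.6 and 50.6 CPM in the AL group and 61.3, 50.4 and 75.1 CPM in the HD group. In both genes rat 69 was the highest of all rats and the other HD rats lay within the AL range or within 1 CPM of it. The log2 fold changes were 0.19 (SE 0.16; adjusted *P* = 0.74, edgeR) for *Pfkl* and 0.15 (SE 0.17; adjusted *P* = 0.833, edgeR) for *Pfkm*. *Pfkp* had 48.1, 46.0 and 42.6 CPM in the AL group and 29.2, 24.4 and 55.4 CPM in the HD group. Here 2 HD rats lay below and rat 69 lay above every AL rat, and the log2 fold change was -0.32 (SE 0.29; adjusted *P* = 0.761, edgeR). Without rat 69 the log2 fold change of *Pfkp* was -0.76 (unadjusted *P* = 0.00115, adjusted *P* = 0.179, edgeR), and without rat 67 it was -0.10 (adjusted *P* = 0.951, edgeR).

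A ratio within a rat does not depend on the scaling of the library. *Pfkp* supplied 23.7%, 20.7% and 23.1% of phosphofructokinase TPM in the AL group and 15.1%, 13.8% and 20.2% in the HD group. Every HD rat was below every AL rat, rat 69 included, although rat 69 lay only just below AL rat 71. *Pfkl* supplied 50.3% to 51.0% in the AL group and 53.1% to 58.4% in the HD group, also without overlap. The ratio of *Pfkp* to *Pfkl* was 0.661-fold in the HD group, a log2 difference of -0.60 (exact permutation *P* = 0.1, adjusted *P* = 0.28 over the 7 ratios). The ratio of *Pfkm* to *Pfkl* had a log2 difference of -0.05 (exact permutation *P* = 0.7) and that of *Pfkp* to *Pfkm* -0.55 (exact permutation *P* = 0.2). Of the 7 ratios, only *Pgam2* to *Pgam1* and *Pfkp* to *Pfkl* had groups that did not overlap. By CPM, 838 of the 11553 tested genes had every HD rat above every AL rat, and 810 had every HD rat below. No such share was computed for ratios or for shares of a family. *Pfkp* is also expressed in blood cells. The summed leukocyte markers given above were lower in every HD rat with *Lyz2* and overlapped without it, while 5 red blood cell markers summed to 677, 1028 and 756 CPM in the AL group and 1213, 1774 and 981 CPM in the HD group. The part of either list in the *Pfkp* share was not tested.

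**Figure D2:**
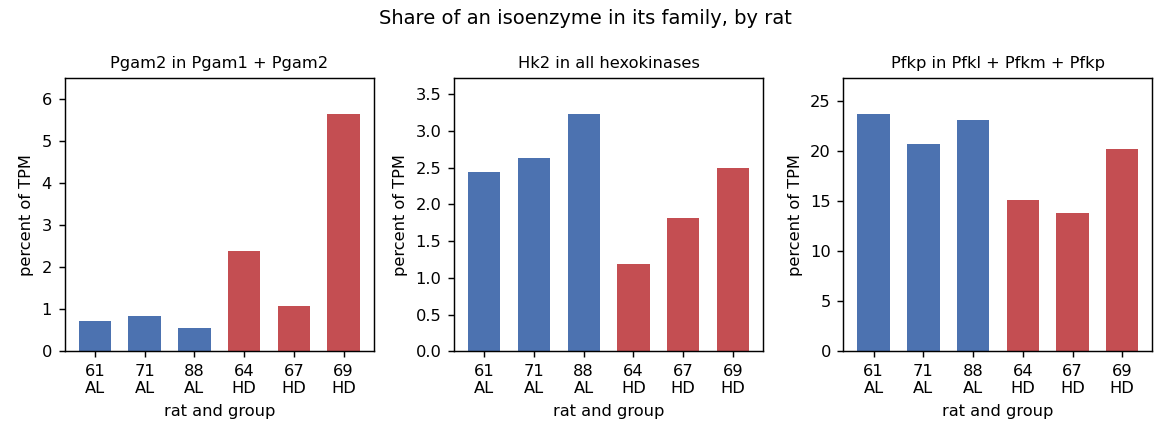
Percent of the TPM of an enzyme family supplied by *Pgam2*, *Hk2* and *Pfkp*, with a bar for each rat (blue AL, red HD; each vertical axis starts at 0 and has its own range). The *Pgam2* share is above the AL rats in all 3 HD rats and reaches 5.65% in rat 69, the *Pfkp* share is below the AL rats in all 3 HD rats, and the *Hk2* shares overlap.

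Aldolase splits fructose 1,6-bisphosphate, and *Aldoa* is the form of muscle and most other tissues. *Aldoa* had 957, 728 and 770 CPM in the AL group and 763, 823 and 1054 CPM in the HD group. The groups overlapped, with rat 69 highest, and the log2 fold change was 0.11 (SE 0.17; adjusted *P* = 0.888, edgeR).

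*Aldoa* was the member with the most transcripts, 3, which differ in their first exon. Transcript NM_001177305, whose first exon of 41 bases lay at chr1:205213048-205213088 in rn5 on the minus strand, took 52.9%, 34.2% and 42.4% of the gene's counts in the AL group and 28.6%, 47.4% and 37.7% in the HD group. NM_012495, with a first exon of 142 bases at chr1:205212070-205212211, took 46.0%, 64.6% and 55.6% in the AL group and 69.2%, 50.4% and 60.6% in the HD group. For both transcripts the ranges of the AL and HD groups overlapped. The transcripts share their other exons, so the split rests on the reads that reach the first exon and is uncertain. How many reads did so was not counted. *Eno1* had 2 transcripts, and NM_012554 took at least 99.7% of its counts in every rat.

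Enolase turns 2-phosphoglycerate into phosphoenolpyruvate, and *Eno1*, the form of most tissues, supplied 98.7% to 99.3% of enolase TPM. *Eno1* had 1257, 1125 and 1110 CPM in the AL group and 1432, 1408 and 1297 CPM in the HD group. Every HD rat was above every AL rat, so *Eno1* and *Pgam2* were the 2 of 9 members without overlap, where 7.25% of all tested genes had every HD rat above every AL rat. Its log2 fold change was 0.24 (SE 0.12; unadjusted *P* = 0.0859, adjusted *P* = 0.536, edgeR). Rat 69, highest for 7 of the 9 members, was the lowest HD rat for *Eno1*. The muscle form *Eno3* had a log2 ratio to *Eno1* that differed by -0.22 (exact permutation *P* = 0.5), and the neuronal form *Eno2*, placed on 2 chromosomes in the files, had a log2 ratio that differed by -0.84 (exact permutation *P* = 0.2).

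Over the 9 members, 7 had a positive and 2 a negative log2 fold change, and the median was 0.15 against 0.01 for all tested genes. Without *Pgam2* the median of the other 8 was 0.13, and their adjusted *P* values ran from 0.535 to 0.888 (edgeR). Rat 69 was the highest of the 6 rats for 7 of 9 members (77.8%) and the highest HD rat for 8 of 9 (88.9%), where over all tested genes these shares were 16.6% and 39.3%. Without rat 69, the median of the members was 0.02.

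The list of other glycolysis genes and their controls, with the opposing fructose bisphosphatases, held 28 symbols, of which 25 were in the files and 21 were tested. None passed the adjusted threshold, with adjusted *P* values of 0.455 to 0.989 by edgeR and of at least 0.299 by DESeq2. Of the 21, 13 had a positive and 8 a negative log2 fold change, and the median was 0.16. At an unadjusted *P* value below 0.05 there were 4 of 21, all with HD higher, where 4.66% of all tested genes were. Of these 4, *Pfkfb1* met the minimum of 30 counts only through HD rats 67 and 69. The filter thus favoured HD higher for *Pfkfb1*. *Pgk1*, phosphoglycerate kinase and the step just before phosphoglycerate mutase, had 514, 436 and 421 CPM in the AL group and 550, 553 and 570 CPM in the HD group. These groups did not overlap, and the log2 fold change of *Pgk1* was 0.29 (SE 0.12; adjusted *P* = 0.468, edgeR). Of the 21, 2 had every HD rat above every AL rat, *Pgk1* and *Tpi1*, where 7.25% of all tested genes did. *Fbp1*, the fructose bisphosphatase of liver and proximal tubule that works in the direction of glucose synthesis, had 786, 594 and 649 CPM in the AL group and 1071, 1001 and 715 CPM in the HD group. Rat 69 lay below AL rat 61, and the log2 fold change was 0.46 (SE 0.19; adjusted *P* = 0.46, edgeR). *Pfkfb4* and *Pfkfb1*, enzymes that set the level of the phosphofructokinase activator fructose 2,6-bisphosphate, had log2 fold changes of 0.55 (SE 0.23; adjusted *P* = 0.466, edgeR) and 1.79 (SE 0.73; adjusted *P* = 0.455, edgeR). *Pfkfb1* had at most 56 estimated counts in any rat, and its groups overlapped.

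**Figure D3:**
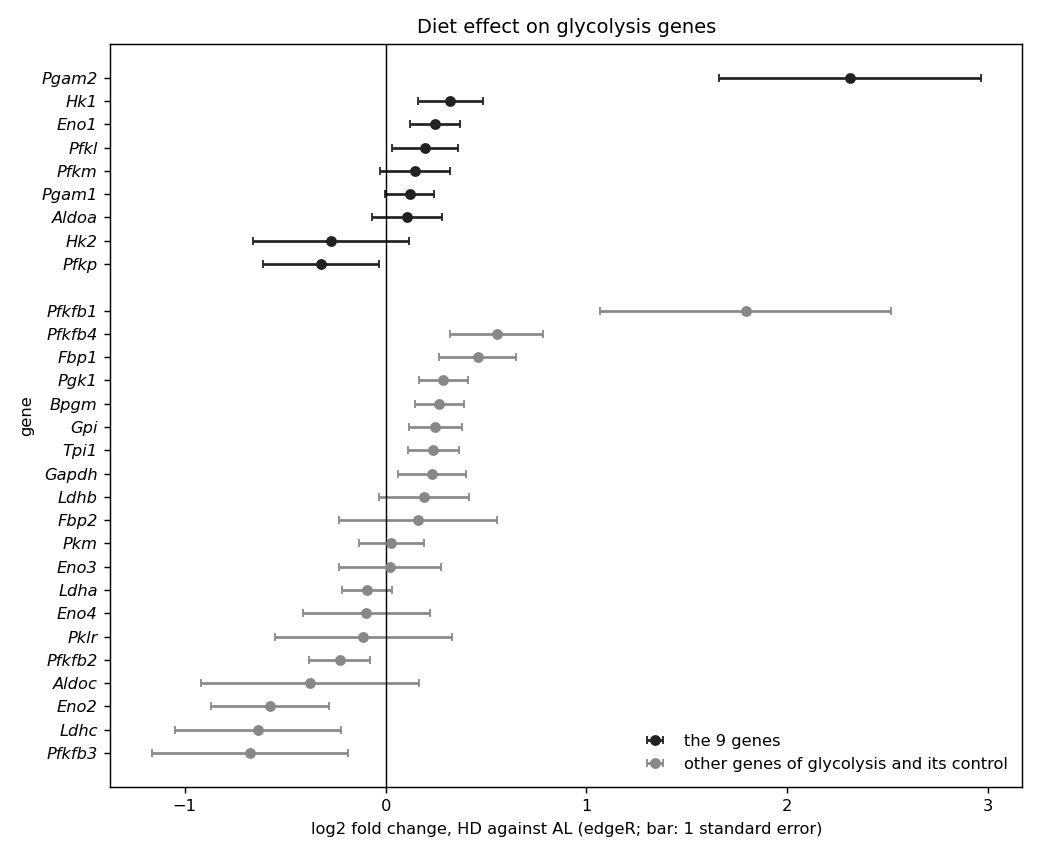
Log2 fold change of HD against AL from edgeR, with a bar of 1 standard error to each side, for the 9 genes (black) and 20 of the 21 other tested genes of glycolysis and its control (grey), sorted within each set. *Pgam2* lies at 2.31, the other 8 members lie between -0.32 and 0.32, and no gene in the plot passed an adjusted *P* value of 0.05 by edgeR.

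Because *Pgam2* is best known from muscle, markers of muscle were set beside it. Of 30 genes of striated muscle, 26 were in the files and only 7 had enough counts to be tested. *Ckm*, the muscle creatine kinase, had 0, 5 and 0 counts in the AL group and 0, 0 and 7 in the HD group, and *Myl2* had none in any rat. In all, 15 of the 26 had at most 15 counts in every rat. The summed level of the list was 96.6, 50.9 and 49.6 CPM in the AL group and 87.9, 92.7 and 72.4 CPM in the HD group, and the groups overlapped. This overlap rested on *Casq1*, calsequestrin, which had 77.9, 34.5 and 33.2 CPM in the AL group and 62.4, 62.2 and 26.0 CPM in the HD group. Without *Casq1* the other 25 genes summed to 18.7, 16.4 and 16.4 CPM in the AL group and 25.5, 30.5 and 46.4 CPM in the HD group, without overlap and with rat 69 highest, as for *Pgam2*.

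Of the 7 tested, 2 reached an unadjusted *P* value below 0.05 by edgeR, *Tnnc1* and *Mb*, both with HD higher. Over all tested genes, 4.66% did so with HD higher. *Mb* met the minimum of 30 counts only through HD rat 69, so the filter favoured HD higher for it. Of the other tested genes, skeletal actin *Acta1* had a log2 fold change of 1.36 and also met this minimum only through rat 69. *Mylpf*, a myosin light chain, had a log2 fold change of -0.40 and *Pygm*, the muscle glycogen phosphorylase, had -0.71. *Tnnc1*, the troponin C of slow and heart muscle, had 1.83, 2.38 and 1.19 CPM in the AL group and 13.6, 15.9 and 28.4 CPM in the HD group. It was like *Pgam2* in being highest in rat 69 and without overlap, but its HD rats lay closer together, and the log2 fold change was 3.42 (SE 0.39; adjusted *P* = 0.104, edgeR). With both *Casq1* and *Tnnc1* left out, the other 24 genes summed to 16.8, 14.0 and 15.2 CPM in the AL group and 11.9, 14.6 and 18.0 CPM in the HD group, and the groups overlapped. *Mb*, myoglobin, had 0, 0 and 1 counts in the AL group and 1, 14 and 38 in the HD group. The summed level of 11 smooth muscle markers was 170, 337 and 356 CPM in the AL group and 149, 181 and 540 CPM in the HD group, with rat 69 highest. The summed level of 11 podocyte markers was 87.4, 220 and 200 CPM in the AL group and 248, 348 and 541 CPM in the HD group, without overlap and with rat 69 highest, and 5 of the 11 reached an unadjusted *P* value below 0.05 with HD higher, against 4.66% of all tested genes. *Tcf21* and *Plce1* of that list had log2 fold changes of -1.24 and -0.27. The sums with genes left out were chosen after seeing the data. The part of these lists in the *Pgam2* values was not tested.

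**Figure D4:**
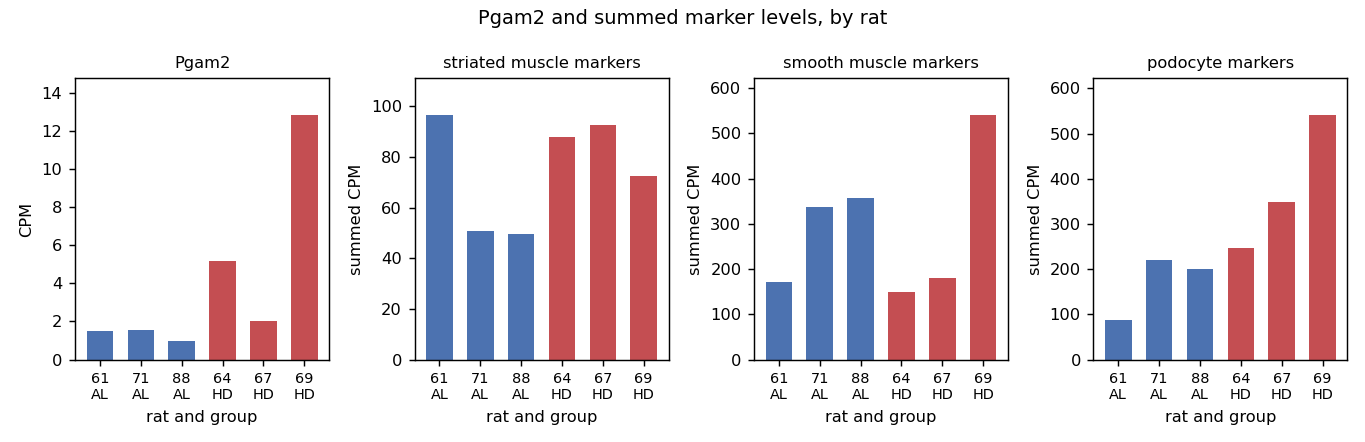
CPM of *Pgam2* and summed CPM of the striated muscle, smooth muscle and podocyte marker lists, with a bar for each rat (blue AL, red HD; each vertical axis starts at 0 and has its own range). *Pgam2*, the smooth muscle list and the podocyte list are highest in rat 69, while the striated muscle list, with *Casq1* included, is highest in AL rat 61 (96.6 CPM, of which 77.9 CPM is *Casq1*).

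Genes whose level followed that of *Pgam2* most closely were found by Pearson's correlation of log2(CPM + 0.5) over the 6 rats, among 11271 genes with a mean of at least 1 CPM. With 6 points, which share their libraries and the difference between diets, 115 genes had a correlation of at least 0.9, so this is a description only. The 5 highest were *Sardh* (0.987), the mitochondrial sarcosine dehydrogenase, *Dusp8* (0.984), a phosphatase of MAP kinases, *Csf2rb* (0.979), the shared beta chain of cytokine receptors, *Eif4h* (0.976), a translation initiation factor, and *Mcf2l* (0.976), a guanine nucleotide exchange factor. *Sardh* had 81.4, 84.9 and 83.6 CPM in the AL group and 117, 95.1 and 157 CPM in the HD group. It had the order of *Pgam2* in the HD rats, 69 above 64 above 67, which its choice by this correlation favours. Its log2 fold change was much smaller, at 0.56 (SE 0.18; adjusted *P* = 0.406, edgeR). Those of *Dusp8*, *Csf2rb*, *Eif4h* and *Mcf2l* were 0.985, 0.671, 0.113 and 0.118. Among the members, the correlation with *Pgam2* was 0.84 for *Pfkl*, 0.80 for *Pfkm*, 0.77 for *Pgam1*, 0.64 for *Hk1*, 0.57 for *Aldoa*, 0.53 for *Eno1*, 0.16 for *Pfkp* and -0.04 for *Hk2*.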

How the data were processed

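Poly(A)-selected RNA was sequenced as single-end reads, with 1 library per rat. The authors quantified transcripts with RSEM 1.1.15 against the UCSC gene set of rn5. The deposited tables give, per transcript, an estimated count, which is not normalized, a posterior mean of it, and TPM, which the authors' RSEM run scaled to length and library. Whether rats of a group shared a cage or batch is not given in the sources used here.

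Estimated counts were summed per gene symbol and rounded. Genes with at least 30 counts in at least 1 rat were tested (11553 genes) with edgeR 4.0.16 (R 4.3.3), TMM normalization and diet as the only factor, with Benjamini-Hochberg adjustment and a threshold of 0.05. The common biological coefficient of variation was 0.242. DESeq2 1.42.0, the tool of the study's methods, was an alternative. An SE is the log2 fold change divided by the square root of F. Log2 ratios of TPM were compared by exact permutation tests (scipy 1.17.1). The scripts were tested on simulated data. Promoters came from RefSeq (GRCr8), and both mutases were matched by symbol.

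The members and lists were chosen with earlier results of these data known. Named were all 9 members, isoenzymes of their steps, other glycolysis genes with an unadjusted *P* value below 0.05, the 5 genes most correlated with *Pgam2*, and the highest or most changed markers. *Tpi1*, *Ckm*, *Myl2*, *Acta1*, *Mylpf*, *Pygm*, *Tcf21* and *Plce1* were named after their values were seen. A few isoenzymes that the rule would name are left out here.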

Additional observations from a re-analysis of the deposited data

How the results depend on the processing

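*Pgam2* was higher in the HD group under every alternative run, with a log2 fold change of 1.41 (without rat 69) to 2.74 (without rat 67) and adjusted *P* values of 0.0312 (DESeq2, log2 fold change 2.31) to 0.916. The members called were 1 with DESeq2 and 0 under every other alternative. Of 108 recomputed member fold changes, 105 kept direction and side of the threshold, and 2 reversed, both without rat 69: *Pfkm* (-0.006, range with a rat left out -0.006 to 0.278) and *Aldoa* (-0.04, range -0.04 to 0.233). Of 56 recomputed ratios, 1 reversed, *Pfkm* to *Pfkl* without rat 67 (0.01, range -0.117 to 0.01). All genes called numbered 182 with DESeq2, 2 with no filter on low counts and 0 to 4 with a rat left out. Genes at an unadjusted *P* value below 0.05 numbered 606 to 1744 with a rat left out, against 1224. Members at that level, 1 here, numbered 2 with DESeq2 (*Eno1* added) and 1 to 2 with a rat left out. The other glycolysis genes at that level, 4 here, numbered 2 with library size alone, 2 with at least 10 counts in every rat, and 0 to 9 with a rat left out. Their median log2 fold change was -0.0308 (without rat 69) to 0.2248 (without rat 61). With library size alone the median of the members was 0.07. Chosen after seeing the data, leaving out *Casq1* moved the HD to AL ratio of the summed striated muscle markers from 1.28 to 1.99, leaving out *Tnnc1* too gave 0.966, and leaving out *Lyz2* moved that of the leukocyte markers from 0.261 to 0.413. The causes were not tested. No paired analysis was made, because the groups were separate rats that the study assigned to the diets at random. A level of *Pgam2* near 1 CPM rests on 15 to 28 counts per AL rat, which limits the precision of its fold.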
